A study of Anableps anableps with 8 samples.

Results

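Cones whose opsin transcripts came mainly from opn1sw1 were examined in nuclei of the adult retina of the four-eyed fish Anableps anableps. A nucleus was included when it held at least 500 UMIs (unique molecular identifiers, each standing for 1 captured transcript). The summed UMIs of the cone genes GNAT2, PDE6C, CNGA3, cnga3a, grk7a, arr3a and gngt2b had to reach 3 and to exceed the sum of the rod genes GNAT1, PDE6A, PDE6B, cnga1a and saga. At least 2 UMIs had to fall on the cone opsin rows named opn1sw1, opn1sw2, opn1mw1 and opn1lw1, and at least 80% of them on opn1sw1. The nuclei were thus chosen by their opsin, cone and rod gene counts. This gave 192 sws1 cones, which were 11.8% of 1627 opsin-dominant cones (Wilson 95% interval 10.3 to 13.5%) among 6430 nuclei. The same rule assigned 204 cones to opn1sw2 (sws2 cones), 1109 to opn1mw1 (rh2 cones) and 122 to opn1lw1 (lws cones).

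The study profiled single nuclei of whole retina by combinatorial barcoding, in which nuclei carry a well barcode from each round and are then divided among sublibraries. All samples are adult whole retina, and the labels name no treatment and no second condition. The labels name 8 sublibraries and 5 biological replicates, while the count matrix used here names 2 retinas and 2 sublibraries. No label ties those retina names to an animal or to a labelled sublibrary. The names are therefore used only to show each value separately for retina 1 and retina 2, no test between cone classes was made, and intervals cover counting error only. UMIs were summed over the nuclei of a class and divided by the class total, in the usual CPM scaling, in which the genes of every class add up to the same sum. A gene was called when it had at least 20 UMIs over both classes and differed at least 2-fold in the same direction in each retina.

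Vertebrate cones turn light into a fall of cGMP: the opsin activates cone transducin, which activates the phosphodiesterase PDE6, and the channel formed by CNGA3 and CNGB3 subunits closes. Guanylate cyclase activating proteins, opsin kinases and arrestin then help to end the response, while recoverins restrain the opsin kinases. The opsin gene sws1 encodes the ultraviolet- or violet-sensitive pigment, sws2 the blue-sensitive pigment, rh2 the green-sensitive pigment and lws the red-sensitive pigment. In zebrafish, the T-box factor Tbx2b is required for the ultraviolet cone fate and the thyroid hormone receptor encoded by thrb for the red cone fate.

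The 192 nuclei came from both retinas and all 12 first-round wells. Retina 1 gave 88 nuclei, 10.2% of its opsin-dominant cones, and retina 2 gave 104 nuclei, 13.6%. In retina 1, sublibraries s1 and s2 held 48 and 40 of them, and in retina 2 they held 49 and 55. The share was thus between 8.93% and 13.7% in the 4 combinations of retina and sublibrary. A median of 6105.5 UMIs was counted per sws1 nucleus, against 6105.5 in sws2, 5619 in rh2 and 6535 in lws cones. No 2 of the 192 nuclei shared their well barcodes between sublibraries, although 99 barcodes did so among all nuclei.

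The opsin values chose the members and are given as a description. The nuclei held 1064 opn1sw1 UMIs, a median of 5 opsin UMIs and from 2 to 19 per nucleus. The remaining 25 opsin UMIs fell on opn1sw2 (5), opn1mw1 (9) and opn1lw1 (11), and 173 of 192 nuclei held no UMI of another cone opsin. At the lower edge, 35 members had exactly 2 opsin UMIs, and 23 cone nuclei with 1 opn1sw1 UMI and no other opsin UMI stayed outside. A further 51 cone nuclei with 50 to 80% of their opsin UMIs from opn1sw1 also stayed outside. Of 259 nuclei dominated by opn1sw1, 67 failed the cone criterion, 63 of them because the rod sum reached the cone sum. The opn1sw1 level was 765 CPM in retina 1 and 644 CPM in retina 2 in the members, 0 UMIs in sws2 cones, 6.90 CPM in rh2 cones and 1.87 CPM in rod nuclei. Opn1sw1 was detected in 1.89% of rh2 cones and 0.535% of rod nuclei, at median depths of 5619 and 1814 UMIs.

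Levels of the genes in the cone criterion differed among the classes and are likewise a description. Cone arrestin, encoded by arr3a, binds phosphorylated cone opsin and ends its activity. Arr3a stood at 185 CPM in retina 1 and 203 CPM in retina 2 of the sws1 cones, against 760 and 769 CPM in sws2 cones, and at 1284 CPM in rh2 and 1053 CPM in lws cones. Arr3a itself is 1 of the genes in the cone criterion, so nothing is drawn from these levels. The channel subunit gene cnga3a stood at 120 CPM in sws1 and 321 CPM in sws2 cones, whereas its relative CNGA3 stood at 193 and 281 CPM. The cone transducin gene GNAT2 was close in both, at 465 and 455 CPM. The cone criterion sum had a median of 16.5 UMIs in sws1 nuclei against 28 in sws2, 26 in rh2 and 30 in lws nuclei, so sws1 nuclei lay nearer to the lower bound of the criterion.

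Tbx2b and fscn2a, which the rule did not use, were given beforehand as markers of these cones. Since earlier results of these data were known, their levels are a description and no independent check of the label. Tbx2b stood at 546 CPM in retina 1 and 463 CPM in retina 2 of sws1 cones, at 385 and 376 CPM in sws2 cones, at 35.5 and 28.8 CPM in rh2 cones and at 24.4 and 32.8 CPM in lws cones. Sws1 and sws2 cones were both high, with no overlap with rh2 and lws cones. The log2 ratio to sws2 cones was 0.38 (95% counting interval 0.22 to 0.53), which was not called, and the ratio to all other opsin-dominant cones was 2.70 (2.56 to 2.84), which was called. Tbx2b was detected in 88.0% of sws1 nuclei and in 3.69% of rod nuclei, at median depths of 6105.5 and 1814 UMIs. Thinned to 1000 UMIs, the shares were 39.8% in sws1, 31.4% in sws2, 1.62% in rh2 and 0.820% in lws cones. Tbx2b therefore marked sws1 and sws2 cones together and did not separate them by the call used here.

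The actin-bundling protein fascin 2, an outer segment protein of photoreceptors, is encoded by 2 rows named fscn2a. The row ENSABLG00000017447 stood at 1882 and 1719 CPM in the sws1 cones of retina 1 and 2, at 337 and 394 CPM in sws2 cones, at 57.7 and 45.9 CPM in rh2 cones and at 26.3 and 60.5 CPM in lws cones. Levels thus stepped down from sws1 to sws2 to the other cones without overlap between the first 2 steps. The log2 ratio was 2.30 to sws2 cones (2.17 to 2.44) and 4.30 to all others (4.20 to 4.41), both called. Thinned to 1000 UMIs, it was detected in 82.2% of sws1, 27.0% of sws2, 2.17% of rh2 and 0.565% of rod nuclei. The row ENSABLG00000002316 stood at 438 and 402 CPM in sws1 cones and at 424 and 451 CPM in sws2 cones, and its log2 ratio to all other cones was 0.03 (-0.09 to 0.15). Only ENSABLG00000017447 of the 2 rows was called, and since both carry 1 symbol, reads could have been split between them if the copies share sequence.

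**Figure D1:**
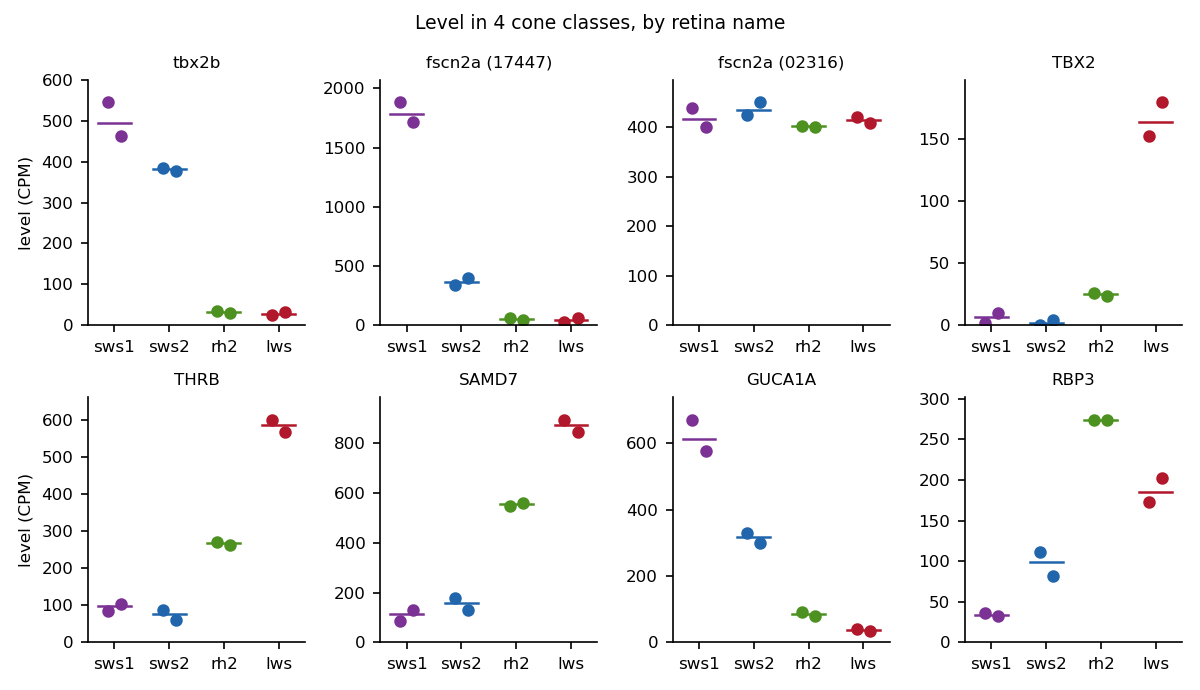
Levels in CPM (linear axes from 0) of 8 gene rows in the 4 cone classes. Points are the 2 retinas and short lines are the class value. Sws1 cones stand alone at the top for fscn2a ENSABLG00000017447 and GUCA1A, share the top with sws2 cones for tbx2b, and stand lowest for RBP3.

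Against sws2 cones, 270 of 10076 tested genes (2.68%) were called higher in sws1 cones and 264 (2.62%) were called lower. Against all other opsin-dominant cones, 336 of 14006 (2.40%) were called higher and 542 (3.87%) lower. The median log2 ratio of all tested genes was -0.07 and -0.18 in these comparisons. Both share the sws1 nuclei, and the sws2 cones are part of the second. In the second, UMIs were summed over 9853116 of rh2, 1559614 of sws2 and 928767 of lws cones, so rh2 cones weigh most. High doublet scores, given by simulated pairs of nuclei, marked 48 of 192 sws1 nuclei (25.0%), against 34.2% of the other opsin-dominant cones. Without the marked nuclei (144 sws1 and 148 sws2 cones remained), 171 of the higher genes (1.70% of those tested) and 107 of the lower genes (1.06%) were called again against sws2 cones. Against all others, 270 of the higher genes (1.93%) and 222 of the lower genes (1.59%) were called again. A call that was made again is written below as kept, and a call that was not as lost. The kept counts of each list below are to be read beside these shares of all genes. A call can also be lost because fewer UMIs are left. Kept refers to this check alone. Under a stricter cone criterion (cone sum of at least 5, rod sum of 0), 138 of the 270 higher and 98 of the 264 lower calls against sws2 cones were made again.

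**Figure D2:**
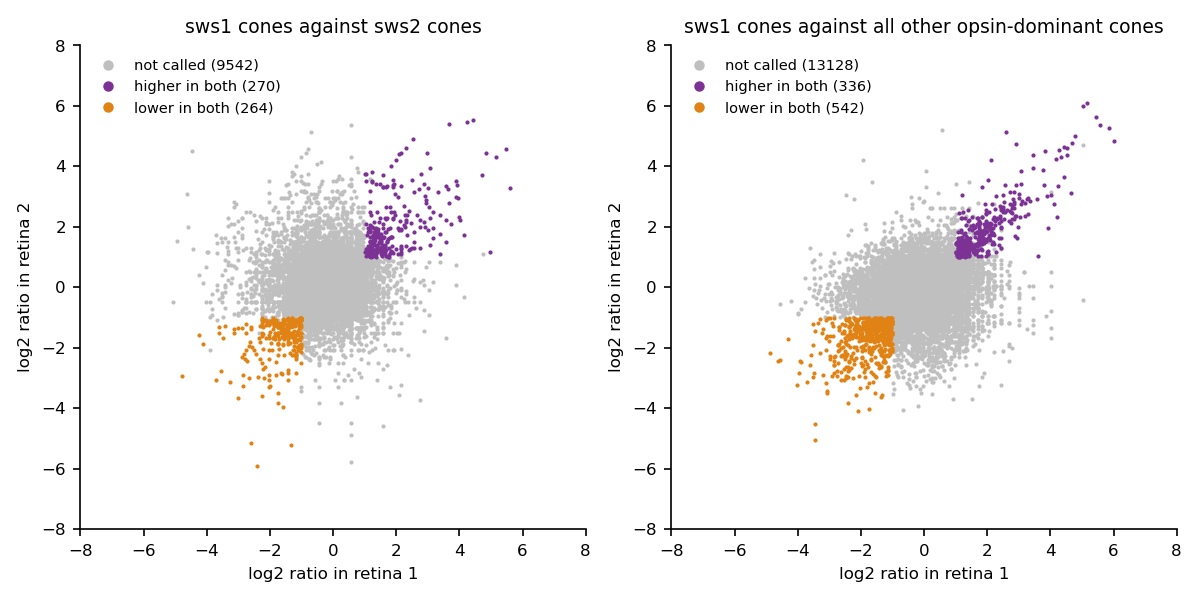
Log2 ratio of each tested gene in retina 1 (x axis) and retina 2 (y axis), sws1 cones over sws2 cones (left) and over all other opsin-dominant cones (right). Purple points are the 270 and 336 genes called higher and orange points the 264 and 542 called lower. The call rule asks for the same sign in each retina, so the corners with opposite signs can hold grey points only.

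Markers of other retinal cells were counted in every cone class. The 9 rod markers summed to 455 CPM in retina 1 and 587 CPM in retina 2 of sws1 cones, within the span of the other classes (419 to 976 CPM) and far under the 7647 CPM of rod nuclei. These markers include the rod genes of the cone criterion, and rod nuclei were chosen by those genes and a cone sum of 0. The rod sums thus partly follow from the selection and are a description only. The 9 bipolar markers summed to 882 and 673 CPM in sws1 cones and to 970 and 608 CPM in sws2 cones. The 6 Müller glia markers summed to 142 and 172 CPM against 204 and 60.7 CPM. Of 7 microglia markers, 6 were at 0 UMIs in the sws1 cones. No tested marker of these and the other cell type lists was called against all other cones, beside 2.40% and 3.87% of all genes. Tested were 3 of 9 rod, 9 of 9 bipolar, 5 of 6 Müller glia, 7 of 7 amacrine and 1 of 5 ganglion cell markers. For horizontal cells 2 of 3 were tested, for pigment epithelium 5 of 5 and for oligodendrocytes 6 of 8. For microglia 1 of 7 and for connective tissue 4 of 7 were tested. At those shares, lists of this size can hold no call whether or not such RNA is present. Against sws2 cones, 1 of 3 tested amacrine markers was called lower. The part of such RNA in the results was not tested. The rod sum of the cone criterion was 0 in 55.7% of sws1 and 56.4% of sws2 nuclei.

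Of 24 tested genes of photoreceptor fate, 1 was called higher and 0 lower than in sws2 cones, beside 2.68% and 2.62% of all genes, and the median log2 ratio was -0.06. That call, of EBF1 ENSABLG00000020712, was lost without the high doublet scores. In the comparison with all other cones, 2 of 31 were called higher and 4 lower, beside 2.40% and 3.87% of all genes, and 1 and 4 were kept. The median log2 ratio was -0.23, against -0.18 over all genes.

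THRB, the thyroid hormone receptor gene, stood at 85.7 CPM in retina 1 and 104 CPM in retina 2 of sws1 cones and at 87.7 and 59.2 CPM in sws2 cones. It stood at 272 and 262 CPM in rh2 cones and at 601 and 568 CPM in lws cones. Sws1 and sws2 values overlapped, and both lay below rh2 and lws. The log2 ratio to all other cones was -1.46 (-1.71 to -1.23). Without the high doublet scores, 7 THRB UMIs were left in 144 sws1 nuclei (8.36 CPM against 253 CPM in the others), a log2 ratio of -4.92 (-6.24 to -3.87). The level was 230 CPM in barcodes of under 100 UMIs, which stand for free RNA.

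SAMD7, a photoreceptor subunit of a Polycomb repressor complex, stood at 85.7 and 132 CPM in sws1 cones and at 179 and 129 CPM in sws2 cones. It stood at 550 and 561 CPM in rh2 and at 896 and 848 CPM in lws cones. The ratio to all other cones was -2.22 (-2.44 to -2.00), and without the high doublet scores 17 UMIs were left in sws1 nuclei, a ratio of -4.88 (-5.67 to -4.20). In retina 1, the SAMD7 level of the sws1 nuclei was 8.04 CPM in sublibrary s1 and 140 CPM in s2.

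The gene named TBX2, a copy of the same T-box family as tbx2b, was high in other classes. TBX2 stood at 1.65 and 9.66 CPM in sws1 cones, 0 and 4.55 CPM in sws2 cones, 26.1 and 23.1 CPM in rh2 cones and 152 and 179 CPM in lws cones. Sws1 and sws2 cones were thus both low. Its 10 UMIs in sws1 cones came from 7 nuclei. The ratio to all other cones was -2.31 (-3.38 to -1.42), called lower and kept, and too few UMIs were counted for a test against sws2 cones. Sall3a, a spalt-type zinc-finger gene, was also called lower and kept, with 9 UMIs and a ratio of -1.36 (-2.52 to -0.41). Six6a, a homeobox gene, was called higher on 9 UMIs and lost.

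The other measured fate factors were not called in either comparison. The photoreceptor homeobox genes CRX and otx5 had log2 ratios to sws2 cones of -0.03 (-0.36 to 0.31) and -0.15 (-0.43 to 0.14). NEUROD1, a basic helix-loop-helix factor of photoreceptors, stood at -0.03 to sws2 cones and at 0.68 to all others. Sall1a, MEF2D ENSABLG00000008687, MEF2D ENSABLG00000008990 and roraa ENSABLG00000003139 lay between -0.06 and 0.08 to sws2 cones, and TGIF1 stood at -0.06. Six7, a homeobox factor that maintains green and blue opsins in zebrafish, stood at 40.3 CPM in sws1 and 78.9 CPM in sws2 cones, a ratio of -0.97 (-1.43 to -0.52). The aryl hydrocarbon receptor gene ahr1b stood at 536 and 959 CPM, a ratio of -0.84 (-0.96 to -0.71), and roraa ENSABLG00000003874 and RORB stood at -0.84 and -0.69. NR2E3 and NRL, which specify rods in mammals, had 12 and 20 UMIs. SAMD11, EGR1, rxrgb, XBP1 and LHX3 had ratios to sws2 cones of 0.41, 0.44, -0.19, -0.51 and 1.52. Gdf6a, LHX4, tbx3a, otx2b and EBF1 ENSABLG00000017341 had 2, 4, 7, 3 and 14 UMIs in sws1 cones and were tested only against all others.

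Dorsoventral genes, which pattern the upper and lower retina, had 3 of 18 called higher and 0 lower against sws2 cones, beside 2.68% and 2.62% of all genes, and the median log2 ratio was 0.31. Of those 3, only tbx5b was kept. Tbx5b, a dorsal T-box factor, stood at 75.8 and 89.1 CPM in sws1 cones against 13.3 and 7.59 CPM in sws2 cones, a ratio of 2.94 (2.21 to 3.77), and at 2.09 (1.77 to 2.40) to all others. VAX2, a ventral homeobox factor, was not called, with ratios of 0.66 (0.44 to 0.89) and 0.55. Thinned to 1000 UMIs, tbx5b was detected in 5.24% of sws1, 0.490% of sws2, 1.08% of rh2 and 4.10% of lws nuclei. The sws1 and lws shares rest on 10 of 191 and 5 of 122 nuclei, and their intervals overlap. By level, the summed tbx5 genes stood at 92.3 CPM in sws1, 14.1 CPM in sws2, 23.9 CPM in rh2 and 40.9 CPM in lws cones. Among the 192 nuclei, 25 held UMIs of tbx5 genes only, 71 of vax genes only, 29 of both and 67 of neither. In the same order, sws2 cones counted 8, 71, 6 and 119, rh2 cones 27, 474, 59 and 549, and lws cones 18, 18, 8 and 78. SMOC1, a secreted BMP regulator, had a ratio of 3.40 to sws2 cones over all nuclei and 0.57 (-1.51 to 2.84) without the high doublet scores. Its 374 UMIs in sws1 cones came from 21 nuclei, and its level of 243 CPM there was close to the 241 CPM of lws cones. CYP27C1, which converts vitamin A1 to vitamin A2, had 38 UMIs in 14 sws1 nuclei against 2 UMIs in sws2 cones, a ratio of 4.27 (2.32 to 7.36), and the call was lost on 13 and 0 UMIs. Lws cones held more CYP27C1, at 46.3 CPM against 24.7 CPM in sws1 cones.

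Against all other cones, 3 of 26 dorsoventral genes were called higher and 2 lower, beside 2.40% and 3.87% of all genes, and 2 and 1 were kept. The ephrin gene efnb2a ENSABLG00000016818 stood at 556 and 521 CPM in sws1 cones against 263 and 241 CPM in the others, a ratio of 1.08 (0.97 to 1.19). FIBCD1, a fibrinogen-domain receptor gene, stood at 56.0 and 29.0 CPM in sws1 cones and at 778 and 818 CPM in rh2 cones, a ratio to all others of -4.02 (-4.41 to -3.66). In sws2 and lws cones FIBCD1 stood at 37.2 and 24.8 CPM, so the low level was shared by the 3 classes other than rh2. The Wnt agonist gene RSPO4 (21 UMIs, called higher) and BMP4 (1 UMI, called lower) were lost. The remaining genes tested against sws2 cones were not called: NR2F2 ENSABLG00000012161, NR2F2 ENSABLG00000013741, nr2f5, EPHB3, ephb2a, ephb2b, ephb3a, EPHB1 ENSABLG00000017906, efnb2a ENSABLG00000001777, CHRDL2 and SMOC2, with ratios from -2.15 (SMOC2, 4 UMIs) to 1.09 (ephb3a). CYP26C1, bmp2b, NR2F1, nr2f6b, tbx5a, ALDH1A2 and EPHB1 ENSABLG00000015273 had 1, 3, 9, 7, 13, 13 and 17 UMIs and were tested only against all others, where none was called.

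None of 29 tested cone phototransduction genes was called in either direction against sws2 cones, beside 2.68% and 2.62% of all genes. Genes of the cone criterion, such as arr3a and cnga3a, were left out of the tested genes. The count therefore does not cover their differences from sws2 cones, given above. The median of the list was -0.36, below the -0.07 of all tested genes. Against all other cones, 2 of 33 were called higher and 2 lower, beside 2.40% and 3.87% of all genes, and all 4 were kept.

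GUCA1A, a calcium sensor that activates guanylate cyclase, stood at 671 and 577 CPM in the sws1 cones of retina 1 and 2, at 330 and 299 CPM in sws2 cones, at 90.4 and 80.9 CPM in rh2 cones and at 41.3 and 35.3 CPM in lws cones. Values fell into the order sws1, sws2, rh2, lws with no overlap. The log2 ratio was 0.95 (0.80 to 1.11) to sws2 cones and 2.46 (2.34 to 2.58) to all others. Thinned to 1000 UMIs, GUCA1A was detected in 50.8% of sws1, 25.5% of sws2, 5.69% of rh2, 2.46% of lws and 21.5% of rod nuclei.

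Rcvrn2, a recoverin that restrains opsin kinase, stood at 401 and 354 CPM in sws1 cones, 285 and 294 CPM in sws2 cones and 153 and 139 CPM in all others pooled, a ratio to the latter of 1.35 (1.21 to 1.48). Rcvrn3, another recoverin, had the opposite sign at -0.86 (upper bound -0.72) to sws2 cones and was not called. Unc119a, which carries transducin between compartments in its mammalian form, stood at 641 and 690 CPM in sws1 cones against 1394 and 1468 CPM in all others, a ratio of -1.09 (lower bound -1.18). Guca1g ENSABLG00000003643 was called lower on 12 UMIs, with a ratio of -1.49 (-2.46 to -0.66). That call was not made again with the stricter cone criterion, where the ratio was -0.73 (-1.98 to 0.31). The channel subunit genes cngb3.1 and cngb3.2 had ratios to sws2 cones of -0.97 (-1.09 to -0.85) and -0.91 (-1.04 to -0.79), just inside the 2-fold bound. The transducin beta gene gnb3b stood at 0.35 (0.24 to 0.46), and the gamma subunit gene of cone PDE6, pde6ha ENSABLG00000020205, at -0.06 (-0.14 to 0.02).

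Among the others, the RGS9 complex, which speeds the turn-off of transducin, was represented by rgs9a at -0.42, gnb5b at -0.19, RGS9BP ENSABLG00000018441 at -0.89 and RGS9BP ENSABLG00000010800 at -0.75. The guanylate cyclase genes gc2 and gucy2f stood at -0.56 and -0.30. The cyclase activators GUCA1C, guca1d, GUCA1B and guca1g ENSABLG00000003644 stood at -0.04, -0.80, -0.38 and -0.36. The exchanger genes SLC24A2 ENSABLG00000012575, SLC24A2 ENSABLG00000010199, SLC24A1 ENSABLG00000016593 and SLC24A1 ENSABLG00000006792 stood at -0.50, -0.25, -0.61 and -0.05. The kinase genes grk7b and grk1a ENSABLG00000012148 stood at -0.20 and -0.08, the phosducin genes pdcb and PDC at -0.36 and 0.36, UNC119B at -0.32 and pde6ha ENSABLG00000000148 at -0.63. Rcvrna, gnb5a, grk1a ENSABLG00000010238 and gnb3a had at most 6 UMIs in sws1 cones and were tested only against all others.

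**Figure D3:**
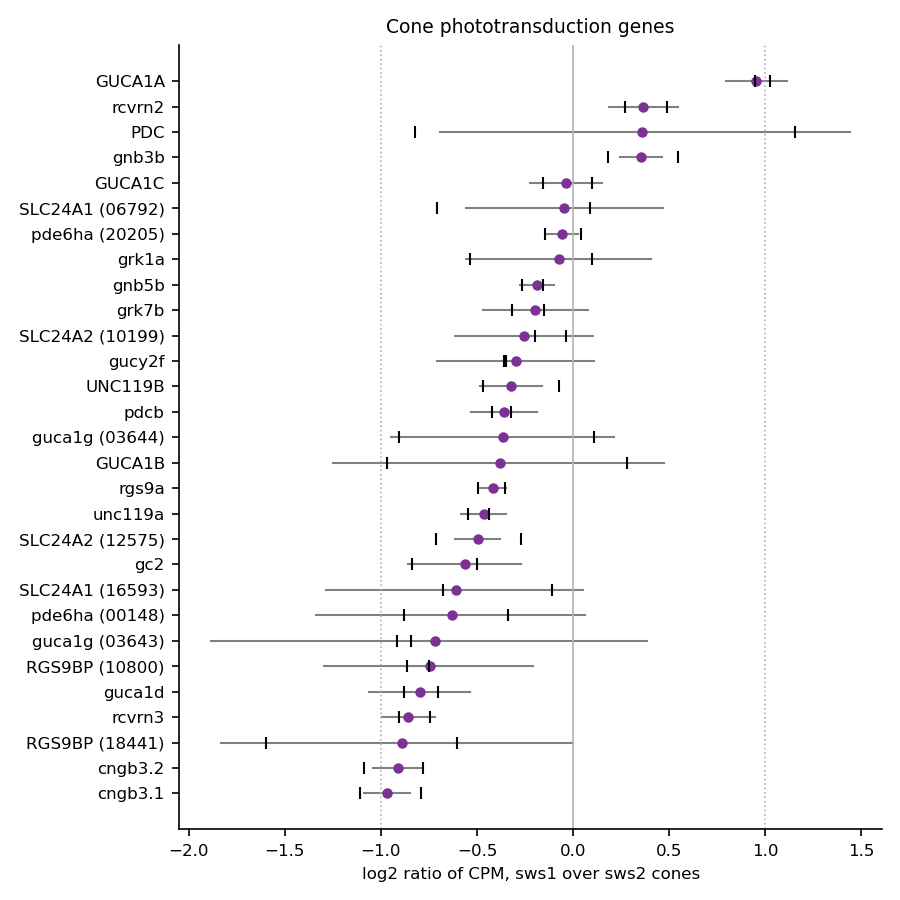
Log2 ratio of CPM, sws1 over sws2 cones, for the 29 tested cone phototransduction genes. Dots are the pooled ratio, grey bars its 95% counting interval and black ticks the 2 retinas, with dotted lines at 2-fold. GUCA1A at 0.95 and cngb3.1 at -0.97 lie nearest to the 2-fold lines.

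Outer segment and cilium genes had 2 of 33 called higher and 2 lower against sws2 cones, of which 2 and 1 were kept, beside 2.68% and 2.62% of all genes. Besides fscn2a ENSABLG00000017447, the higher gene was AIPL1, a chaperone partner for PDE6. AIPL1 stood at 44.5 and 54.8 CPM in sws1 cones against 13.3 and 18.2 CPM in sws2 cones, a ratio of 1.72 (1.04 to 2.45), and at 1.44 to all others. AIPL1 stood at 176 CPM in rod nuclei, and without the high doublet scores the ratio to sws2 cones was 3.41 (1.95 to 5.35).

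RBP3, the interphotoreceptor retinoid-binding protein, stood at 36.3 and 32.2 CPM in sws1 cones, 111 and 81.9 CPM in sws2 cones, 273 and 274 CPM in rh2 cones and 173 and 202 CPM in lws cones. Sws1 cones were the lowest class in both retinas. The ratio was -1.55 (-2.03 to -1.08) to sws2 cones and -2.86 (-3.28 to -2.46) to all others, and both calls were kept. CRB1 ENSABLG00000020407, a polarity gene, was called lower on 8 UMIs and lost.

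Compared with all other cones, 4 of 33 outer segment and cilium genes were called higher and 5 lower, beside 2.40% and 3.87% of all genes. Of these 4 and 3 were kept, beside 1.93% and 1.59% of all genes. Among them the following were chosen after their values were seen. The tetraspanin gene prph2b stood at 313 and 267 CPM in sws1 cones against 133 and 123 CPM, a ratio of 1.15 (0.99 to 1.30). The protocadherin gene pcdh15a had a ratio of 1.06 (0.99 to 1.12) and RPGRIP1, a connecting cilium gene, had one of -1.14 (-1.43 to -0.85). All 3 calls were kept. Of the 2 rows named crb2b, ENSABLG00000016966 had a ratio of -1.22 and was kept, and ENSABLG00000002616, with 10 UMIs, was lost.

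The visual cycle returns bleached chromophore to 11-cis-retinal, and 4 of 16 of its tested genes were called higher and 2 lower against sws2 cones, beside 2.68% and 2.62% of all genes. Of these, 2 and 2 were kept, beside 1.70% and 1.06%. Dhrs3b, a retinal reductase gene, stood at 147 and 112 CPM in sws1 cones against 46.6 and 44.0 CPM in sws2 cones, a ratio of 1.46 (1.06 to 1.88) and of 2.19 (1.92 to 2.45) to all others. RDH12, a photoreceptor retinol dehydrogenase gene, had a ratio of 1.66 (0.83 to 2.58) on 50 and 16 UMIs. The RDH12 call was not made again with the stricter cone criterion. Rdh8b, an outer segment retinol dehydrogenase gene named here after its values were seen, stood at 554 and 477 CPM in sws1 cones against 1345 and 1458 CPM in sws2 cones. Its ratio of -1.46 (-1.58 to -1.34) was kept, and RBP3, also a member of this list, was the other lower gene. Rdh10a (39 UMIs) and CYP27C1 were the higher genes that were lost. Relative to all other cones, 2 of 19 were called higher and 2 lower, beside 2.40% and 3.87% of all genes, and 1 of each was kept, dhrs3b and RBP3. Rdh12l (44 UMIs, higher) and RDH5 (4 UMIs, lower) were lost.

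At the ribbon synapse, where cones release glutamate, 2 of 37 tested genes (5.41%) were called higher and 3 (8.11%) lower against sws2 cones. Of all genes, 2.68% and 2.62% were called. From the list 2 and 2 calls were kept, beside 1.70% and 1.06% of all genes. Cacna2d4a encodes an auxiliary subunit of the cone calcium channel. It stood at 11211 and 10269 CPM in the sws1 cones of retina 1 and 2 and at 4642 and 5040 CPM in sws2 cones. It stood at 2116 and 2009 CPM in rh2 and at 597 and 716 CPM in lws cones, so the 4 classes were stepped without overlap. The ratio was 1.15 (1.11 to 1.19) to sws2 cones and 2.21 (2.18 to 2.23) to all others, and nearly the same without the high doublet scores, at 1.15 and 2.22. The related gene CACNA2D4 stood at 0.22 and 0.09 and was not called. DAG1 ENSABLG00000007665, the dystroglycan gene, had a ratio to sws2 cones of 1.08 (0.61 to 1.56), with 77.4 CPM in sws1 and 72.1 CPM in lws cones. The DAG1 call was not made again with the stricter cone criterion.

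ERC2 ENSABLG00000008162, a scaffold of the active zone, stood at 506 and 638 CPM in sws1 cones against 1435 and 1361 CPM in sws2 cones, a ratio of -1.26 (-1.37 to -1.15), and of -1.57 (-1.66 to -1.47) to all others. Lrit3a, whose mammalian form organises the postsynaptic side of the photoreceptor synapse, had ratios of -1.10 (-1.35 to -0.85) and -1.18 (-1.40 to -0.97). The third lower gene, CABP4, a calcium sensor of the photoreceptor synapse, had a ratio of -1.08 and turned to 1.79 on 7 and 2 UMIs without the high doublet scores. CABP4 stood at 656 CPM in rod nuclei against 35.1 CPM in sws1 cones. Against all other cones, 1 of 43 was called higher and 3 lower, beside 2.40% and 3.87% of all genes, and 1 and 2 were kept, with sv2bb lost on 3 UMIs.

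Ion channel genes had 5 of 41 called higher and 0 lower against sws2 cones, beside 2.68% and 2.62% of all genes. Of these 4 were kept, beside 1.70% of all genes on the higher side. All 4 were potassium or pacemaker channels. KCNB2 ENSABLG00000016325, a delayed-rectifier potassium channel gene, stood at 5849 and 5423 CPM in sws1 cones, 1859 and 2051 CPM in sws2 cones, 1219 and 1087 CPM in rh2 cones and 3657 and 3401 CPM in lws cones. Sws1 cones were highest and lws cones were second, without overlap. The ratio was 1.53 (1.47 to 1.59) to sws2 cones and 1.96 (lower bound 1.92) to all others. Thinned to 1000 UMIs, it was detected in 98.4% of sws1 and 55.4% of sws2 nuclei. A second row named KCNB2, ENSABLG00000005617, stood at -0.34 and was not called.

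KCNH7 ENSABLG00000012241, an ether-a-go-go-related potassium channel gene, had a ratio to sws2 cones of 1.78 (1.43 to 2.15) and kcnd2 ENSABLG00000016758, an A-type potassium channel gene, one of 3.08 (1.37 to 5.45) on 25 and 3 UMIs. HCN2 ENSABLG00000000230, a hyperpolarisation-activated channel gene, had one of 1.62 (0.94 to 2.36). With the stricter cone criterion, the calls of KCNB2 and HCN2 against sws2 cones were made again. Those of KCNH7, at 1.05 (0.52 to 1.59), and of kcnd2, on 19 and 0 UMIs, were not. KCND3, with 75 UMIs, was lost. Of 50 channel genes tested against all other cones, 3 were called higher and 2 lower, beside 2.40% and 3.87% of all genes, and all were kept. On the lower side, the calcium channel gene cacna1ab ENSABLG00000005691 had a ratio of -1.63 (-2.15 to -1.16) on 37 UMIs.

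Receptor and gap junction genes had 3 of 45 called higher and 5 lower against sws2 cones, beside 2.68% and 2.62% of all genes. Of these 1 and 4 were kept, beside 1.70% and 1.06%. Against all others 4 of 58 were called higher and 9 lower, beside 2.40% and 3.87% of all genes. Of these 3 and 3 were kept, beside 1.93% and 1.59%. Gria1b ENSABLG00000004951, an AMPA receptor subunit gene, stood at 1010 and 1244 CPM in sws1 cones against 405 and 338 CPM in sws2 cones, a ratio of 1.61 (1.48 to 1.75) and of 1.82 (1.73 to 1.90) to all others. Grin2da, an NMDA receptor subunit gene, had a ratio to all other cones of 2.44 (2.07 to 2.81) and 0.93 (0.45 to 1.42) to sws2 cones. GJD2, the gene of a neuronal gap junction protein, stood at 64.3 and 73.0 CPM in sws1 cones, 33.3 and 30.3 CPM in sws2 cones and 10.1 and 14.2 CPM in rh2 cones, a ratio to all others of 2.30 (1.94 to 2.66). The calls of GRM7 ENSABLG00000007620, GRIN2B and GABRG3 were lost, each with at most 26 UMIs in sws1 cones.

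On the lower side, GABRR1 ENSABLG00000004480, a GABA receptor subunit gene, stood at 47.8 and 53.7 CPM in sws1 cones against 187 and 193 CPM in sws2 cones, a ratio of -1.88 (-2.26 to -1.52), while rh2 and lws cones held 44.8 and 21.5 CPM and its ratio to all others was -0.25 (-0.61 to 0.08). GABRA5, another subunit gene of GABA receptors, was called lower in both comparisons, at -1.65 and -1.70 on 11 UMIs. GRM4 ENSABLG00000011744, a metabotropic glutamate receptor gene, had 1 UMI in sws1 cones against 25 in sws2 cones, and both of its calls were lost. Other glutamate receptor genes called lower against all others were grid1b ENSABLG00000010521 (-1.56), grm8a (-1.71), gria1a (-1.66) and GRIK2 ENSABLG00000021494 (-1.14), with 34, 21, 6 and 6 UMIs in sws1 cones, and all 4 calls were lost.

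**Figure D4:**
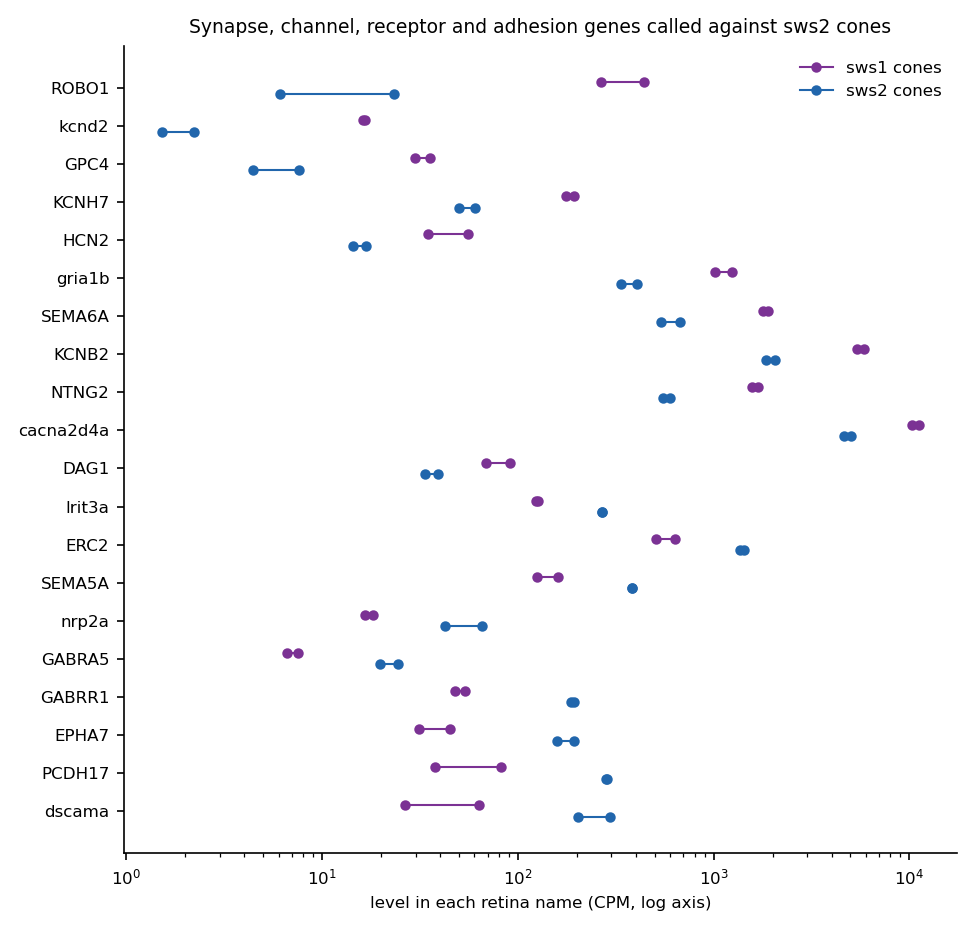
Level in CPM (log axis) in each retina, joined by a line, for 20 synapse, channel, receptor and adhesion genes called against sws2 cones both with and without the high doublet scores, ordered by ratio. Purple is sws1 and blue is sws2, and the pairs do not overlap, from ROBO1 (440 and 267 against 23.3 and 6.07 CPM) at the top to dscama at the bottom.

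Cell adhesion and axon guidance genes had 7 of 107 called higher and 9 lower against sws2 cones, beside 2.68% and 2.62% of all genes, and 4 and 5 were kept, beside 1.70% and 1.06%. Against all others 10 of 122 were called higher and 10 lower, beside 2.40% and 3.87%, and 9 and 5 were kept, beside 1.93% and 1.59%. ROBO1 ENSABLG00000003787, a receptor for Slit guidance cues, stood at 440 and 267 CPM in sws1 cones against 23.3 and 6.07 CPM in sws2 cones, a ratio of 4.39 (3.81 to 5.03) and of 3.16 (2.97 to 3.34) to all others. Its 516 UMIs came from 78 of the 192 nuclei, and without the high doublet scores 357 UMIs stood against 1 UMI in sws2 cones. The glypican gene GPC4 had a ratio to sws2 cones of 2.52 (1.49 to 3.73), with 33.2 CPM in sws1 and 39.8 CPM in lws cones. SEMA6A and NTNG2, a semaphorin and a netrin-related gene chosen after their values were seen, stood at 1894 and 1780 CPM and at 1685 and 1564 CPM in sws1 cones. Their ratios to sws2 cones were 1.57 (1.46 to 1.68) and 1.50 (1.39 to 1.61). Both were also high in rod nuclei, at 1192 and 2695 CPM.

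The protocadherin genes pcdh7b and pcdh11 were high in both sws1 and sws2 cones and were not called between them. Pcdh7b stood at 2633 and 2459 CPM in sws1 cones, 2171 and 2271 CPM in sws2 cones and 195 and 277 CPM in rh2 cones, with ratios of 0.19 (0.12 to 0.26) to sws2 cones and 2.38 (2.32 to 2.43) to all others. Pcdh11 stood at 1714 and 1517 CPM in sws1 cones and at 790 and 922 CPM in sws2 cones, without overlap. Its ratios were 0.92 (0.82 to 1.01) to sws2 cones and 2.91 (2.83 to 2.99) to all others. On the lower side, dscama ENSABLG00000003451, an adhesion gene of the Dscam family, stood at 26.4 and 63.3 CPM in sws1 cones against 297 and 203 CPM in sws2 cones, a ratio of -2.40 (-2.77 to -2.04). Rh2 and lws cones held it at 60.1 and 23.7 CPM, so sws2 cones were the high class, and the ratio to all others of -0.75 was not called. The protocadherin gene PCDH17 had a ratio of -2.36 (-2.71 to -2.02), and its 47.4 CPM in lws cones was near the 55.3 CPM in sws1 cones. SEMA5A, a semaphorin gene, had a ratio to all other cones of -2.65 (-2.85 to -2.46), and EPHA7 ENSABLG00000004822, an ephrin receptor gene, one of -2.70 (-3.66 to -1.88) on 12 UMIs. The call of efna3a, an ephrin gene with 10 UMIs in sws1 cones, was lost.

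Of the genes leading the comparison with sws2 cones, ranked by size of ratio after counts under 3 were set to 3, 9 of the 10 higher genes were kept. Of all genes called higher, 63.3% were kept, and the leading genes were picked for large ratios in these same nuclei. Ebf3a ENSABLG00000012846, a helix-loop-helix factor gene, stood at 98.9 and 108 CPM in sws1 cones against 2.22 and 0 CPM in sws2 cones, with 161 against 2 UMIs and a ratio of 6.35 (4.47 to 9.41). It was found in 85 of 192 sws1 nuclei, and its ratio to all other cones was 4.48 (4.04 to 4.94). Nocta had a ratio of 4.20 (3.40 to 5.13). Tph1a, a tryptophan hydroxylase gene of serotonin and melatonin synthesis, stood at 219 and 174 CPM against 14.4 and 16.7 CPM in sws2 cones, a ratio of 3.64 (3.04 to 4.30). Rh2 cones, however, held tph1a at 149 and 155 CPM, so sws2 cones were the low class. The others were ROBO1, si:dkey-31f5.11, zgc:122979, mpp3b, si:ch73-21k16.1 and FIGN ENSABLG00000012234, all kept, and CYP27C1, which was lost. The call of si:ch73-21k16.1 was not made again with the stricter cone criterion.

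On the lower side 6 of the 10 leading genes were kept, beside 40.5% of all genes called lower. The actin-binding gene ABLIM3 ENSABLG00000017962 had 24 UMIs in sws1 cones against 253 in sws2 cones, a ratio of -3.38 (-4.05 to -2.77). DZANK1 stood at 36.3 and 66.6 CPM against 422 and 455 CPM, a ratio of -3.00 (-3.34 to -2.67), and at 50.6 CPM in lws cones. The sialyltransferase gene ST3GAL2 stood at 49.5 and 34.4 CPM against 354 and 328 CPM, a ratio of -3.09 (-3.49 to -2.71), and at 46.3 CPM in lws cones. Plcd4a, PLBD1 and zfpm2a were also kept. Mamdc2a, fat3b, glis1b and GRM4 were lost. Without the high doublet scores, their UMIs in sws2 cones fell from 52 to 1, 51 to 8, 73 to 2 and 25 to 1, in that order. In sws1 cones mamdc2a and GRM4 had 1 UMI each over all nuclei, and the 8 glis1b UMIs came from 1 nucleus.

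Against all other cones, 7 of the 10 leading higher genes were kept: zgc:122979, grin3bb, ebf3a, PRSS23, fscn2a ENSABLG00000017447, FGD6 and si:ch73-21k16.1. Of all genes called higher in this comparison, 80.4% were kept. Grin3bb, an NMDA receptor subunit gene, stood at 415 and 403 CPM in sws1 cones, 55.5 and 50.1 CPM in sws2 cones, 10.5 and 11.0 CPM in rh2 cones and 5.64 and 0 CPM in lws cones. The ratio to all others was 4.71 (4.48 to 4.95), and thinned detection was 35.6% in sws1 and 5.39% in sws2 nuclei. PRSS23, a serine protease gene, and FGD6, an exchange factor gene, had ratios of 4.44 (4.00 to 4.89) and 4.25 (3.82 to 4.69). HS3ST1, tspan18a and cyp11c1 were lost, with 21, 20 and 20 UMIs in sws1 cones.

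On the lower side against all other cones, 8 of 10 were kept: cycsb, FIBCD1, golga2, pdgfaa, RUNX3, PHF19, si:ch73-281f12.4 and si:dkey-52j6.3. Of all genes called lower in this comparison, 41.0% were kept. Golga2 ENSABLG00000011395, a Golgi matrix gene, stood at 74.2 and 156 CPM in sws1 cones against 521 and 721 CPM in sws2, 1277 and 1531 CPM in rh2 and 1726 and 2023 CPM in lws cones, a ratio of -3.43 (-3.65 to -3.23). Its level in sws1 nuclei of retina 1 was 8.04 CPM in sublibrary s1 and 120 CPM in s2. RUNX3, a runt-domain factor gene, had a ratio of -3.31 (-4.44 to -2.37) on 9 UMIs. PHF19 stood at 1.30 CPM in sws1, 7.69 in sws2, 22.0 in rh2 and 8.61 CPM in lws cones. Pdgfaa stood at 3.25, 10.3, 39.4 and 26.9 CPM in the same order, so rh2 cones were the high class for both. GRM4 and grin3ba were lost, and the PHF19 call was not made again with the stricter cone criterion.

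**Figure D5:**
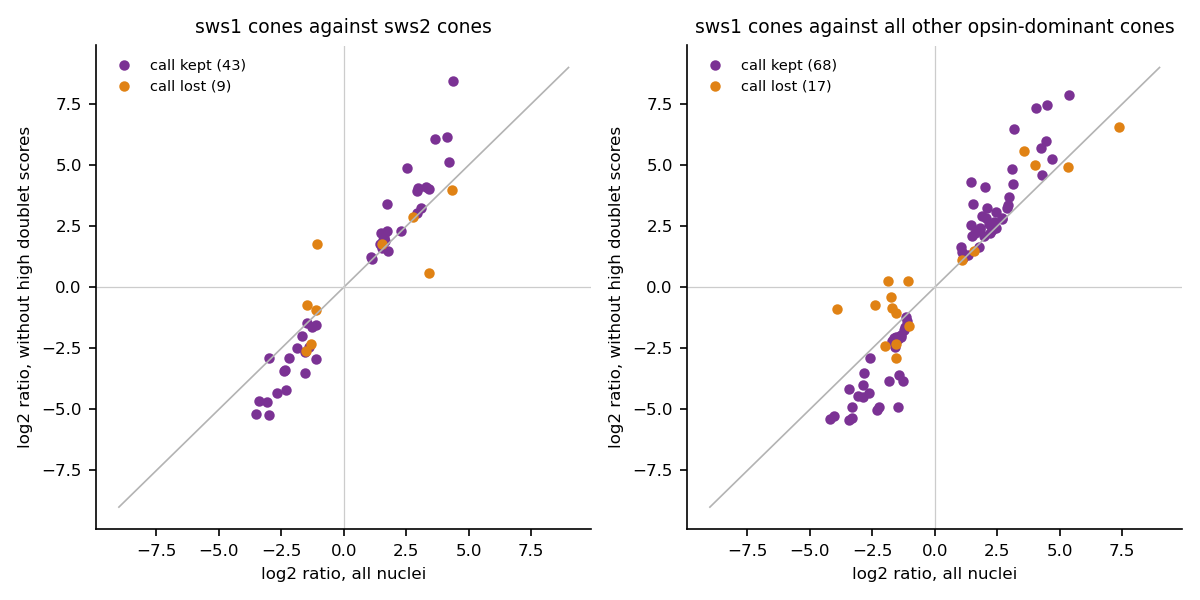
Log2 ratio over all nuclei (x axis) against the ratio without high doublet scores (y axis) for the called genes among the lists and the other genes named, where both ratios could be given, against sws2 cones (left) and all other cones (right). Purple calls were kept and orange calls were lost, and the diagonal marks equal ratios. On the left 20 of 24 lower genes and 24 of 28 higher genes lie farther from 0 than over all nuclei, and on the right 34 of 41 and 39 of 44. Not shown are 21 of 73 calls on the left and 16 of 101 on the right, which had only a bound or no ratio. With those included, 49 of 73 and 73 of 101 calls were kept. Of all called genes, 171 of 270 higher and 107 of 264 lower were kept against sws2 cones. Against all other cones, 270 of 336 higher and 222 of 542 lower were kept. Many of the genes shown were picked for large ratios in these same nuclei.

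The sws1 nuclei also varied among themselves. Of 5587 genes with at least 30 UMIs in them, the median ratio of observed to Poisson variance was 1.47. The 10 most dispersed genes with a symbol were ca10a, matn3b, trpm1b, TNR, dtnbb, BRINP2, SLC4A5, si:ch211-263k4.2, SMOC1 and ADCY8, with values from 24.3 to 37.2. Each of these was detected in 10 to 40 of the 192 nuclei. A single nucleus gave 53.8% of the ca10a UMIs and 78.4% of the dtnbb UMIs. Ca10a, TNR, trpm1b and ADCY8 stood higher in rod nuclei (418, 1132, 883 and 181 CPM) than in sws1 cones (103, 512, 428 and 41.6 CPM). How far a mixture of nuclei entered these values was not tested.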

How the data were processed

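Nuclei of adult Anableps anableps whole retina were fixed, barcoded with the Evercode WT v3 kit and sequenced, per the labels' protocols. The deposited matrix holds whole-number UMI counts per gene and barcode made by the authors. Which aligner, genome build and annotation were used is not stated in the labels or headers. The matrix has 119839 barcodes and 22934 gene rows (17517 with a symbol) and 58447723 UMIs. The 192 sws1 cones held 1538097 UMIs. A barcode table gives the retina name of each barcode in the matrix. Another barcode table was not used here, because it holds totals per barcode without counts per gene. No sequence is shown, since no reference was used.

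Members were found by the stated rule. The members, gene lists and tests were chosen with earlier results of these data known. UMIs were summed per class and retina name and scaled to CPM with Python 3.11.15, numpy 2.4.6, scipy 1.17.1 and pandas 2.3.3. Intervals of ratios are exact conditional 95% intervals. A count of 0 was set to 3 UMIs, and the ratio was then taken as a bound. No ratio was given where both classes had at most 3 UMIs. The genes of the opsin, cone and rod criteria were left out of the tested genes. Doublet scores came from Scrublet in scanpy 1.11.5, run per sublibrary. Its own threshold marked 0.063% of nuclei in s1 and 36.7% in s2, so the s2 threshold was used for both, which marked 37.0% of all nuclei. TMM factors came from edgeR 4.0.16 in R 4.3.3. Genes were named by rule: marker genes, up to 5 called members per list with the largest ratios, all tested members of the fate, dorsoventral and phototransduction lists, the 10 leading genes on each side and the 10 most dispersed genes. The lists overlap. Tested copies with 1 symbol are told apart by identifier where first given, and reads may be shared between them. Counts are over whole lists, and the results of some members are not reported here.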

Additional observations from a re-analysis of the deposited data

How the results depend on the processing

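The share of sws1 cones among opsin-dominant cones stayed within the spread between retinas, from 10.2 to 13.6%. The number of called genes depended on the settings. Leaving out a retina gave 383 to 832 genes higher and 468 to 849 lower against sws2 cones, and 643 to 651 higher and 1541 to 2006 lower against all others, where a call then needs 1 retina only. Thinning nuclei to 1000 UMIs gave 147 higher and 142 lower against sws2 cones and 304 lower against all others. A filter of 50 UMIs gave 174 and 155 against sws2 cones. A fold of 3 gave 96 and 66 against sws2 cones and 159 and 162 against all others. Every other setting kept these counts within 1.5 times. With each class weighing the same, 325 genes were called higher and 493 lower against all others. Of the main calls, 75.9% of the higher and 71.8% of the lower were made again. Among the named ratios to all others, 49 then moved beyond the spread between retinas and 40 lay within it. Fewer UMIs or fewer genes enter under thinning and the filter. TMM factors moved the median log2 ratio of all genes against all other cones from -0.18 to -0.07. With the stricter cone criterion, 138 of the 270 genes higher than in sws2 cones and 98 of the 264 lower were called again.

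For 154 ratios of genes named by the rule or after their values were seen, 1889 values under alternatives were made, of which 1218 lay within the spread between retinas, 668 moved and 3 changed sign. The gene filters of 50 and 3 UMIs and the fold of 3 cannot alter a ratio, so their 154 values each were fixed in advance. Nuclei of at least 1000 UMIs, nearly the same nuclei, also gave 154 values within the spread. Without high doublet scores 109 moved and 27 lay within it, and with the stricter cone criterion 108 and 35. CABP4 against sws2 cones turned to 2.11 with the stricter cone criterion and 1.79 without high doublet scores. Efna3a against all others turned to 0.26 without high doublet scores. The cause was not tested, and few UMIs were left in each case. A further 48 values could not be given, since too few UMIs were left. No paired analysis was possible because the calls come from no test, although the call rule compares classes within each retina. Called list members outside the 154 ratios also changed sign: PLXNA2 ENSABLG00000005475 against sws2 cones turned to 1.11 and GRIK2 ENSABLG00000021494 against all others to 0.96 with the stricter cone criterion, and GLRA3 against all others to 0.26 without high doublet scores.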

Other observations

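Some gene rows of like symbol went in opposite directions in sws1 cones against all other opsin-dominant cones. Rows were grouped when their symbols were equal in any case, after a final a or b of a symbol with no capitals was dropped, which does not by itself show that they are copies of 1 gene. Of 1695 such groups with at least 2 tested rows, 233 had a called row and 6 had both a higher and a lower row. Of all genes tested singly, 2.40% were called higher and 3.87% lower. Whether these group counts exceed those of unrelated rows was not tested. These 6 groups were tbx2, grin3b, gria1, six3, arhgap35 and chrna6, and they were named after their values were seen. The pairs in which both calls were kept without the high doublet scores were tbx2, six3 and arhgap35. The homeobox gene six3a stood at 29.3 CPM in sws1, 16.7 CPM in sws2 and 2.13 CPM in rh2 cones, with a log2 ratio of 2.94, while SIX3 stood at 9.75, 19.2 and 29.5 CPM, with a ratio of -1.47. The GTPase-activating gene arhgap35a stood at 618, 337 and 146 CPM in the same classes, a ratio of 1.89, and arhgap35b at 91.7, 169 and 247 CPM, a ratio of -1.36. For grin3b, the higher row grin3bb was kept, and the lower row grin3ba was lost. Over all nuclei grin3ba had 5 UMIs in sws1 and 371 in the other cones. Without the high doublet scores, 0 and 2 were left. For gria1 the higher row gria1b ENSABLG00000004951 was kept and gria1a was lost, and for CHRNA6 the higher row ENSABLG00000011351 was kept and ENSABLG00000014550 was lost.

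Genes of melatonin synthesis other than tph1a were looked up after its values were seen. The N-acetyltransferase gene AANAT stood at 46.8 CPM in sws1 and 14.1 CPM in sws2 cones, a ratio of 1.73 that was kept, while rh2 and lws cones held 38.7 and 63.5 CPM. Aanat1 stood at 14.3 CPM in sws1, 30.8 in sws2, 112 in rh2 and 132 CPM in lws cones. Its call against all others, at -2.85, was kept, and its call against sws2 cones, at -1.11, was lost.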
